A study of Mus musculus with 6 samples.

Results

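The genes described here are 10 components of the bone morphogenetic protein (BMP) pathway, chosen by name: the ligands Bmp2, Bmp4, Bmp6 and Bmp7, the receptors Bmpr1a, Bmpr1b and Bmpr2, the secreted antagonists Nog and Grem1, and the target gene Id1. They are 10 of the 26579 genes in the count table, and all 10 were among the 15102 genes tested, which reached 1 CPM in 3 or more libraries. CPM is the count of a gene per 1000000 counts of its library, with library totals scaled by TMM. RNA-Seq was performed on dorsal neck skin of 3 wild type mice and 3 YAP2-5SA-∆C transgenic mice, all of them female littermates at postnatal day 33 (P33). The transgene encodes a mildly activated form of YAP, the transcriptional cofactor at the end of the Hippo pathway, and per the study it is expressed in basal keratinocytes that carry Keratin 5 and Keratin 14. The biopsies were whole skin, so the reads came from every cell type of the tissue. Fewer cells of a type and less RNA per cell cannot be told apart in such samples. The wild type littermates carried no transgene, and each library was 1 mouse.

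BMP ligands are secreted dimers that bring together type I receptors, such as Bmpr1a and Bmpr1b, and type II receptors, such as Bmpr2. The active receptors phosphorylate SMAD1, SMAD5 and SMAD9, which enter the nucleus with SMAD4 and switch on targets such as the Id genes, while noggin and gremlin bind the ligands outside the cell and keep them from the receptors. In hair follicles BMP signalling is known to hold stem cells in rest and, in the growing follicle, to drive matrix cells to differentiate into hair shaft and inner root sheath, and noggin from the dermal papilla is known to relieve the rest signal.

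Total counts per library ranged from 11225705 to 19505036, the lowest in wild type replicate 3. Krt14, the keratin of basal keratinocytes, averaged 1648 ± 19.6 CPM over the wild type and 3187 ± 300.2 CPM over the transgenic libraries (SD, n = 3 per genotype). This rise of 0.95 on the log2 scale passed edgeR's quasi-likelihood test (adjusted p = 0.0300). Col1a1, a collagen of dermal fibroblasts, stood at 1722 to 2934 CPM in wild type and 2296 to 3699 CPM in transgenic skin, so both skin layers were present in all 6 libraries. YAP2-5SA-∆C replicate 2 stood apart in its hair keratins and in suprabasal keratinocyte markers. The 7 tested suprabasal markers summed to 7403 and 6707 CPM in the other transgenic libraries and 5193 to 6248 CPM in wild type. In replicate 2 they summed to 11757 CPM. Summed over 12 tested markers of hair matrix, shaft and inner root sheath, it held 1431 CPM against 7244 and 9234 CPM in the other transgenic libraries and 13873 to 18158 CPM in wild type. The log2 fold changes of BMP genes that the likelihood-ratio test called lower are given with and without it.

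Within wild type skin the 10 genes covered a wide range of levels. Per kilobase of annotated exon, Bmpr1a was the most abundant at 44.9 CPM per kb and Id1 was next at 28.8. Bmp4 followed at 10.9 and Bmp7 at 10.3, and these neighbours overlapped between libraries. Bmpr2 stood at 7.12, Bmp2 at 4.34, Grem1 at 2.80, Bmp6 at 1.41, Nog at 0.768 and Bmpr1b at 0.291 CPM per kb. Bmp2 and Grem1 overlapped too, since wild type replicate 1 held Grem1 at 4.08 CPM per kb, above the lowest Bmp2 value of 3.68. No other neighbours in this order overlapped between the wild type libraries. Of the type I receptors, Bmpr1a had a per-kilobase level 112 to 289 times that of Bmpr1b in the wild type libraries and 98.9 to 207 times in the transgenic ones. In transgenic skin the order of means was the same except that Bmp7 (8.72 CPM per kb) stood above Bmp4 (8.20) and Grem1 (4.47) above Bmp2 (3.09).

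**Figure D1:**
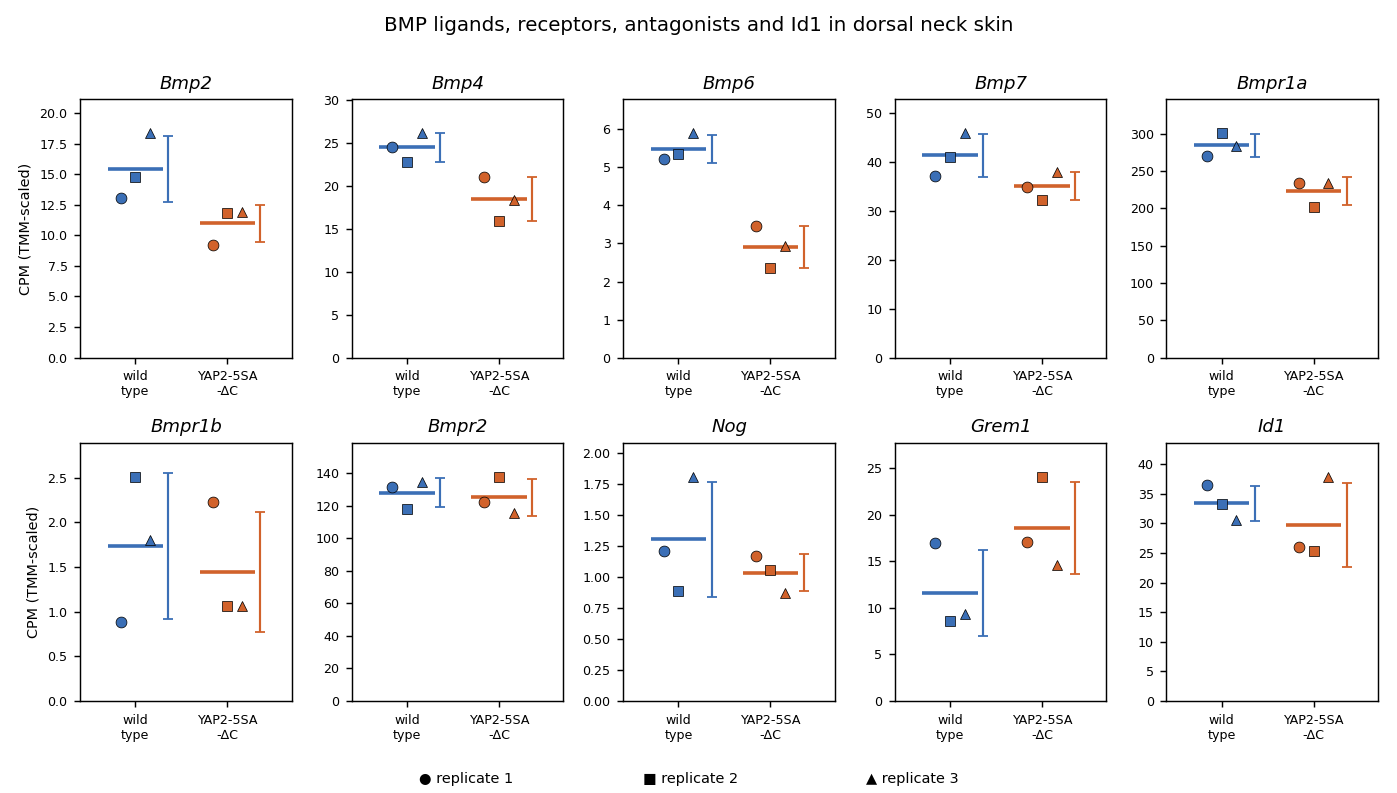
CPM (vertical axes, each starting at 0) of the 10 BMP genes in 3 wild type libraries (blue) and 3 YAP2-5SA-∆C libraries (orange); symbols are single libraries, thick lines the group means and error bars 1 SD. Bmp2, Bmp4, Bmp6 and Bmpr1a show no overlap between the groups, while Bmp7, Bmpr1b, Bmpr2, Nog, Grem1 and Id1 do.

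The stretches before the gene starts were read from RefSeq (GRCm38.p6), since YAP acts on DNA through TEAD factors and BMP SMADs bind short GC-rich boxes. Windows of 250 bases were found for 6 of the 10 genes. Bmp2, Bmp7, Nog and Id1 had none. TEAD was searched as GGAATG on both strands. The GC-rich SMAD box was searched as GGCGCC, which reads the same on both strands. The SMAD palindrome was searched as GTCTAGAC, which also does. No matches of different motifs overlap in the printed windows. The TEAD letters were in 12.6% of all 32851 windows of this length, in none of the 6 windows of the 10 genes, and in 6 of the 48 windows found for all 68 listed BMP genes. The GC-rich box was in 9.59% of all windows and in 3 of the 6, those of Bmpr1a, Bmpr2 and Grem1. Of the 6 windows, 4 overlap an annotated exon of their own gene, those of Bmpr1a and Bmpr2 among them. The GC-rich box was in 15 of the 48. The palindrome was in 0.167% of all windows and in none of the 48. Of these windows, 4 are printed that hold no annotated exon of any gene. The window of Bmp4 is shown, with no match, for a ligand that stood lower in transgenic skin. That of Grem1, the only one of the 10 genes with a positive estimate, is shown for its GC-rich box, and those of Bmp8a and Id4, both lower by the likelihood-ratio test given with their values, for their TEAD letters. Capitals mark the matches, and each runs 5′ to 3′ on the strand of its gene and ends at the base before the start. A match is a string of letters and was not tested for binding.
Bmp4, chr14:46390670-46390919, minus strand: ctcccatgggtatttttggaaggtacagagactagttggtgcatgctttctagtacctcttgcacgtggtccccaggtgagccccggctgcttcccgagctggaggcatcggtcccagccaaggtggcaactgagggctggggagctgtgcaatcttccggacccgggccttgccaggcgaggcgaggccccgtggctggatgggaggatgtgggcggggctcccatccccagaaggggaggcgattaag
Grem1, chr2:113758649-113758898, minus strand: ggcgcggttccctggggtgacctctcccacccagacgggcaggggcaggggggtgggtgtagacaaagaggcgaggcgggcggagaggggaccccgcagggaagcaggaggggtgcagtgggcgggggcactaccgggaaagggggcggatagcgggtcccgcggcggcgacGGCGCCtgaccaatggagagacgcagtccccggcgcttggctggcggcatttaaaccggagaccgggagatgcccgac
Bmp8a, chr4:123343253-123343502, minus strand: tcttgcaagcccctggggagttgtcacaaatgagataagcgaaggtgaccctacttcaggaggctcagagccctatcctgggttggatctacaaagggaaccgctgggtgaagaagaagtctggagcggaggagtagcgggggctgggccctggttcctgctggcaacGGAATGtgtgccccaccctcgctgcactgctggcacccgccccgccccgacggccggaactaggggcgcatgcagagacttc
Id4, chr13:48260866-48261115, plus strand: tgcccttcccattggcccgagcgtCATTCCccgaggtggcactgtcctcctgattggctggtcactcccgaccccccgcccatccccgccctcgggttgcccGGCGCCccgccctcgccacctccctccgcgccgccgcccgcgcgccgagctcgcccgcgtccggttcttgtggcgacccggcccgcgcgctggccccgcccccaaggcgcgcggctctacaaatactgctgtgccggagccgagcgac

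The TEAD letters lay 82 to 77 bases before the start of Bmp8a and 226 to 221 bases before that of Id4, where they ran on the opposite strand. The GC-rich box lay 78 to 73 bases before the start of Grem1 and 148 to 143 bases before that of Id4. The other 4 windows with the TEAD letters were those of Id3, Tll1, Crim1 and Bmp15. Tll1 and Crim1, the latter named after its values were seen, had log2 fold changes above zero (0.21 and 0.11), and Bmp15 was not tested.

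The comparison asks how the transcripts of the pathway differ in skin with an active YAP transgene in the epidermis. None of the 10 genes passed an adjusted p of 0.05 in edgeR's quasi-likelihood test with Benjamini-Hochberg adjustment, in which 1.91% of all tested genes passed in either direction and 0.464% passed as lower. By unadjusted p under 0.05, 5 of the 10 passed, beside 26.3% of all tested genes. The likelihood-ratio test of edgeR, used in the study, called 1 of the 10 (Bmp6), beside 10.4% of all tested genes in either direction and 4.87% as lower. Voom, the study's other test, called 0 of the 10, beside 1.65% of all tested genes. DESeq2's Wald test called 2 (Bmp6 and Bmpr1a), beside 10.5% of all tested genes. Of the 10 estimates, 9 were below zero, beside 7908 of the 15102 tested genes. The median log2 fold change of the 10 was −0.26, beside −0.01 over all tested genes. The groups did not overlap for 4 of the 10 genes, all of them lower in transgenic skin, beside 18.2% of all tested genes that were lower without overlap and 15.5% that were higher without overlap.

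Among the 4 ligands chosen by name, Bmp6 had the largest estimate. The gene, which is known for control of iron balance and is also made in skin, lies on the plus strand of chromosome 13 (chr13:38345107-38500302, GRCm38) and was read at 5.22, 5.34 and 5.90 CPM in wild type replicates 1 to 3 and at 3.45, 2.35 and 2.93 CPM in the transgenic replicates. All 3 transgenic libraries were thus below all 3 wild type libraries, and the lowest value was that of YAP2-5SA-∆C replicate 2. The fold was 0.533 (95% interval 0.405 to 0.703), a log2 fold change of −0.91 ± 0.17 (SE, n = 3 per group). The adjusted p was 0.0504 in the quasi-likelihood test, 0.0536 in voom, 0.00966 in DESeq2 and 0.00110 in the likelihood-ratio test. Without YAP2-5SA-∆C replicate 2 the log2 fold change was −0.76 and the quasi-likelihood adjusted p was 0.0454, and over all 6 ways of leaving out a library the adjusted p ran from 0.0454 to 0.188. These values rest on 40 to 102 counts per library. The exons of Bmp6 share 224 bases with those of Txndc5 on the other strand, and how strand entered the counting is not given in the sources used here. The labels name a stranded total RNA kit, whereas the methods describe standard mRNA libraries. Txndc5 itself stood at 145 CPM in wild type and 121 CPM in transgenic skin (log2 fold change −0.27, adjusted p = 0.130). Bmp4, Bmpr1a, Crim1, Eng, Fst, Furin and Id4 also share 61 to 290 exon bases with a gene on the other strand. Reads of both genes cannot be told apart there if strand was not used.

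Bmp4, a ligand made by the dermal papilla and by follicle keratinocytes, was read at 24.6, 22.8 and 26.2 CPM in wild type and at 21.0, 15.9 and 18.4 CPM in transgenic skin. The groups did not overlap, with the nearest values 22.8 and 21.0 CPM. Its log2 fold change was −0.41 ± 0.12 (SE), which did not pass the quasi-likelihood test (adjusted p = 0.0880). Bmp2, which in follicles is known from the matrix, was read at 13.1, 14.8 and 18.4 CPM in wild type and at 9.23, 11.8 and 11.9 CPM in transgenic skin. Here too the groups did not overlap, and the log2 fold change of −0.48 ± 0.16 (SE) had an adjusted p of 0.118. Bmp2 had its lowest value in YAP2-5SA-∆C replicate 1, whereas Bmp4, Bmp6 and Bmp7 had theirs in replicate 2. Bmp7 was read at 37.2, 41.1 and 46.0 CPM in wild type and at 34.9, 32.3 and 38.0 CPM in transgenic skin. The highest transgenic value lay above the lowest wild type value, and the log2 fold change was −0.24 ± 0.10 (SE, adjusted p = 0.183), or −0.15 without wild type replicate 3. Summed, the 4 ligands amounted to 80.1 to 96.4 CPM in wild type and 62.4 to 71.3 CPM in transgenic skin, without overlap.

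Of the receptors, 1 did not overlap between the groups. Bmpr1a, the type I receptor that keratinocytes need for hair differentiation, was read at 270.5, 301 and 283 CPM in wild type and at 234, 202 and 234 CPM in transgenic skin. Every transgenic library was below every wild type library, and the log2 fold change was −0.35 ± 0.08 (SE; fold 0.784, 95% interval 0.687 to 0.894). The adjusted p was 0.0621 in the quasi-likelihood test, 0.103 in the likelihood-ratio test and 0.00709 in DESeq2. Bmpr2, the type II receptor, was read at 132, 118 and 134 CPM in wild type and at 122, 138 and 115 CPM in transgenic skin, and the groups lay across each other. Its log2 fold change was −0.03 (95% interval −0.24 to 0.17, adjusted p = 0.829), and its sign turned when wild type replicate 3 or transgenic replicate 1 or 3 was left out. Bmpr1b, the other type I receptor, had 16 to 48 counts per library. It was read at 0.880, 2.51 and 1.81 CPM in wild type and at 2.22, 1.06 and 1.06 CPM in transgenic skin, and the interval of its log2 fold change ran from −1.33 to 0.83.

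The estimates of the 2 antagonists had opposite signs, and neither passed a test with all 6 libraries. Grem1, or gremlin, was the only one of the 10 genes with a positive estimate. It was read at 16.9, 8.53 and 9.32 CPM in wild type and at 17.0, 24.1 and 14.6 CPM in transgenic skin. Wild type replicate 1 lay just under transgenic replicate 1 and above transgenic replicate 3, so the groups overlapped. The log2 fold change was 0.67 ± 0.30 (SE, 95% interval −0.03 to 1.38), with an adjusted p of 0.205 by quasi-likelihood and 0.0897 by likelihood ratio. Leaving out wild type replicate 1 or any other library moved it between 0.46 and 1.06. The likelihood-ratio test called Grem1 without wild type replicate 1 (adjusted p = 4.16e-04, beside 11.4% of all tested genes called) and without transgenic replicate 3 (adjusted p = 0.0481, beside 9.28%). The 8 fibroblast markers, none of them with an estimate below zero and 5 higher without overlap, summed to 12986, 9647 and 11666 CPM in wild type and 14542, 16168 and 12447 CPM in transgenic skin, in the same order of the 6 libraries as Grem1. Their part in its values was not tested. Nog, or noggin, was read at 1.21, 0.890 and 1.81 CPM in wild type and at 1.17, 1.06 and 0.874 CPM in transgenic skin, from 14 to 22 counts per library. The groups overlapped, and the interval of the log2 fold change ran from −1.0 to 0.46. The estimate of −0.27 moved to −0.50 when wild type replicate 2 was omitted and to −0.0060 when wild type replicate 3 was. The per-kilobase level of Bmp4 over that of Nog was 15.3, 19.3 and 10.9 in wild type and 13.6, 11.3 and 15.9 in transgenic skin, with overlap (exact permutation p = 0.70). Set against the ligands within each library, the per-kilobase level of Grem1 over that of Bmp2 plus Bmp4 was 0.279, 0.144 and 0.134 in wild type and 0.343, 0.558 and 0.305 in transgenic skin. All 3 transgenic ratios were above the wild type ratios (exact permutation p = 0.10, two-sided, and 3 against 3 cannot give less). The direction follows from the values of Grem1, Bmp2 and Bmp4 given above, so the ratio is no separate support. Over the per-kilobase sum of all 4 ligands, Grem1 was at 0.162, 0.0794 and 0.0756 in wild type and 0.191, 0.305 and 0.162 in transgenic skin. Here the groups overlapped, since wild type replicate 1 lay just above transgenic replicate 3 (exact permutation p = 0.20).

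Id1, a dominant negative partner of basic helix-loop-helix factors and a standard readout of BMP signalling, was read at 36.4, 33.3 and 30.5 CPM in wild type and at 26.0, 25.3 and 37.9 CPM in transgenic skin. Transgenic replicates 1 and 2 were below all wild type libraries and transgenic replicate 3 was above them. The log2 fold change was −0.17 ± 0.16 (SE, 95% interval −0.56 to 0.22, adjusted p = 0.545). It was −0.05 without transgenic replicate 2 and −0.38 without transgenic replicate 3, which was the range over all 6 omissions.

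Of the other genes of the pathway, 58 were listed by role and 46 passed the filter on low counts. None of the 46 passed the quasi-likelihood test, 19 had an unadjusted p under 0.05, the likelihood-ratio test called 11 (2 higher and 9 lower) and DESeq2 called 13 (4 higher and 9 lower). Their median log2 fold change was −0.07. The groups did not overlap for 14 genes that were lower and 7 that were higher in transgenic skin, and the shares over all tested genes are the 18.2% and 15.5% given above. For unadjusted p, the likelihood-ratio test and DESeq2 those shares are 26.3%, 10.4% and 10.5%. Of the 12 BMP genes that the likelihood-ratio test called, Bmp6 included, 5 kept the call whichever library was left out, an alternative chosen after seeing the data (Bmp6, Bmp8a, Id3, Smad6 and Msx2). The other 7 lost it without wild type replicate 2 and also without wild type replicate 3. Id4 lost it without wild type replicate 1 or transgenic replicate 3 too, Eng without transgenic replicate 1, and Fst without transgenic replicate 1 or 3. Their highest adjusted p then was 0.0723 for Id4, 0.239 for Eng, 0.0840 for Msx1, 0.147 for Dlx3, 0.327 for Fst, 0.0997 for Smad7 and 0.0695 for Bambi. How many of all 1568 genes called by the likelihood-ratio test kept the call was not counted, so 5 of 12 has no background. Omission also added likelihood-ratio calls, for 2 of the 10 genes (Grem1 and Bmp2) and 3 of the 46 (Hfe2, named after its values were seen, Nbl1 and Neo1). Bmp2 (adjusted p = 0.0403), Hfe2 (3.96e-05) and Nbl1 (0.0484) passed without wild type replicate 1, and Neo1 (0.0409) without transgenic replicate 1, where 9.57% of all tested genes passed. Hfe2, or hemojuvelin, a coreceptor known from skeletal muscle, stood at 40.6%, 143% and 117% of its wild type mean in wild type and at 67.4%, 59.2% and 33.3% in transgenic skin. The summed skeletal muscle markers stood at 29.1%, 149% and 122% of theirs and at 71.6%, 43.0% and 26.8%, and their part in the values of Hfe2 was not tested.

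**Figure D2:**
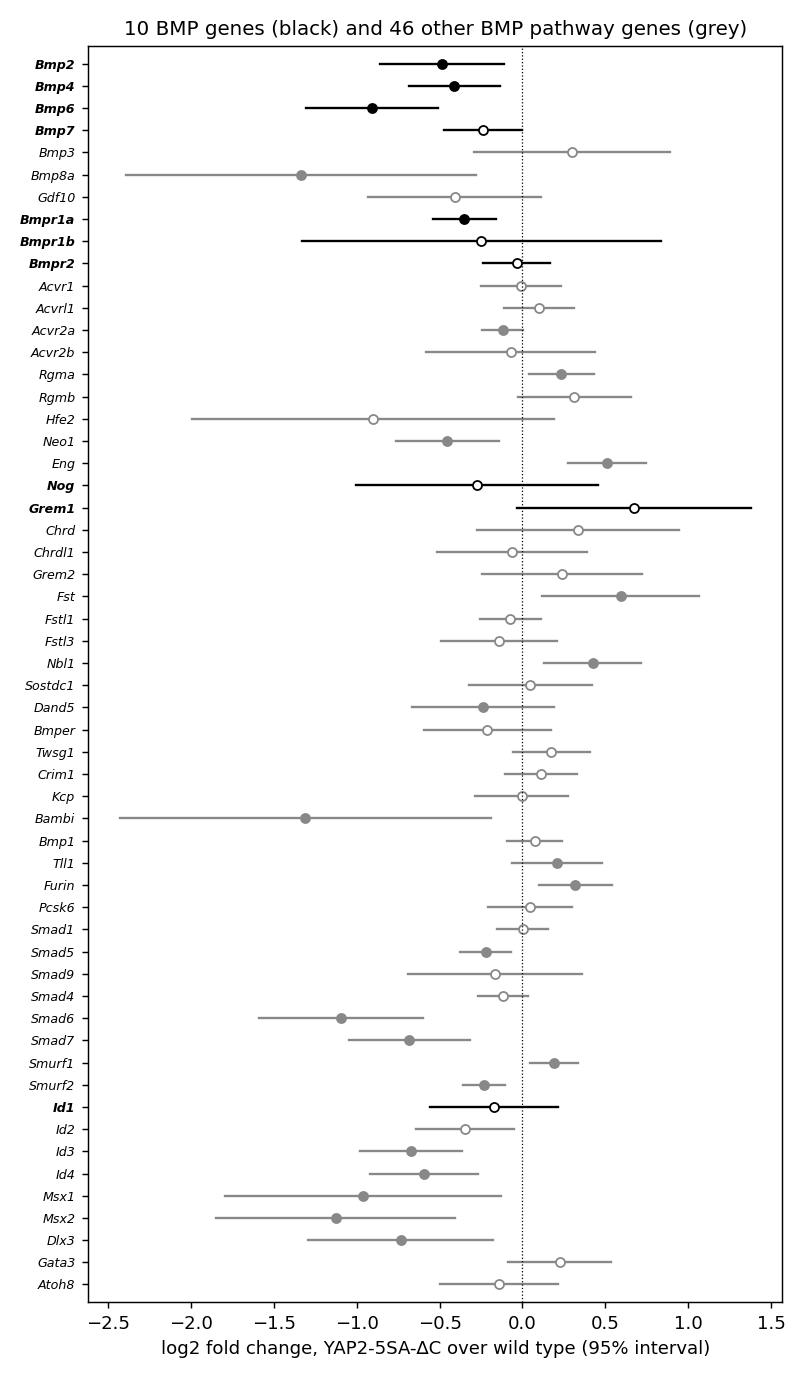
Log2 fold change of YAP2-5SA-∆C over wild type (horizontal axis) with its 95% interval for the 10 BMP genes (black) and the 46 other tested pathway genes (grey), ordered by role from ligands to targets. Filled points mark genes whose groups did not overlap; Smad6, Bmp8a, Bambi and Msx2 lie farthest to the left, and Grem1, Fst and Eng farthest to the right.

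Of the other target genes, 8 were tested. Of these, 7 had an estimate below zero, beside 7908 of the 15102 tested genes, and 5 did not overlap, all lower. The median log2 fold change of the 8 was −0.63, or −0.46 without YAP2-5SA-∆C replicate 2. The likelihood-ratio test called 5 as lower and the quasi-likelihood test called 0 of them, although 6 had an unadjusted p under 0.05. Id3, a close relative of Id1, was read at 54.1, 55.4 and 51.7 CPM in wild type and at 34.2, 27.3 and 39.8 CPM in transgenic skin. Its log2 fold change was −0.67 ± 0.13 (SE), or −0.52 without transgenic replicate 2, with an adjusted p of 0.0526 by quasi-likelihood and 0.00243 by likelihood ratio. Id4, another Id gene, was read at 54.8, 50.4 and 49.9 CPM in wild type and at 41.1, 27.7 and 34.0 CPM in transgenic skin (log2 fold change −0.59 ± 0.14 SE, or −0.44 without transgenic replicate 2, quasi-likelihood adjusted p = 0.0634, likelihood-ratio adjusted p = 0.0111). Within the Id family, Id3 and Id4 did not overlap between the groups, while Id1 and Id2, the latter named after its values were seen, did. Whether the family members differ in their response was not tested. Dlx3, a homeobox gene of the differentiating hair matrix, was read at 123, 131 and 141 CPM in wild type and at 89.7, 49.2 and 98.2 CPM in transgenic skin (log2 fold change −0.73 ± 0.24 SE, or −0.47 without transgenic replicate 2, quasi-likelihood adjusted p = 0.112). Msx2, a homeobox gene of the same cells that is named here after its values were seen, was read at 55.3, 63.7 and 67.1 CPM in wild type and at 34.2, 14.9 and 36.1 CPM in transgenic skin (log2 fold change −1.13 ± 0.31 SE, or −0.80 without transgenic replicate 2, quasi-likelihood adjusted p = 0.0811).

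Of the 8 tested SMADs and SMAD regulators, the likelihood-ratio test called 2, the inhibitory Smad6 and Smad7, both lower, and the quasi-likelihood test called 0. Smad6, which blocks SMAD1 and SMAD5 activation and is itself a target of the pathway, was read at 21.0, 20.4 and 23.1 CPM in wild type and at 11.1, 6.77 and 12.4 CPM in transgenic skin. Its log2 fold change was −1.09 ± 0.21 (SE), or −0.86 without transgenic replicate 2, with an adjusted p of 2.41e-05 in the likelihood-ratio test, 0.0516 in the quasi-likelihood test and 0.0492 in voom. Smad7, the inhibitory SMAD that also acts on TGF-beta receptors, was read at 22.3, 29.3 and 25.8 CPM in wild type and at 16.1, 13.2 and 18.9 CPM in transgenic skin (log2 fold change −0.68 ± 0.15 SE, or −0.55 without transgenic replicate 2, quasi-likelihood adjusted p = 0.0621). Bambi, a decoy receptor named after its values were seen, was read at 58.6, 68.5 and 73.4 CPM in wild type and at 36.0, 8.65 and 36.1 CPM in transgenic skin. It fell by the likelihood-ratio test (log2 fold change −1.31, or −0.87 without transgenic replicate 2, adjusted p = 0.00922), while the quasi-likelihood adjusted p was 0.141. Smad4, the SMAD shared by all branches of the family, stood at 72.9 ± 3.13 CPM in wild type and 67.2 ± 3.38 CPM in transgenic skin (log2 fold change −0.12, adjusted p = 0.289).

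**Figure D3:**
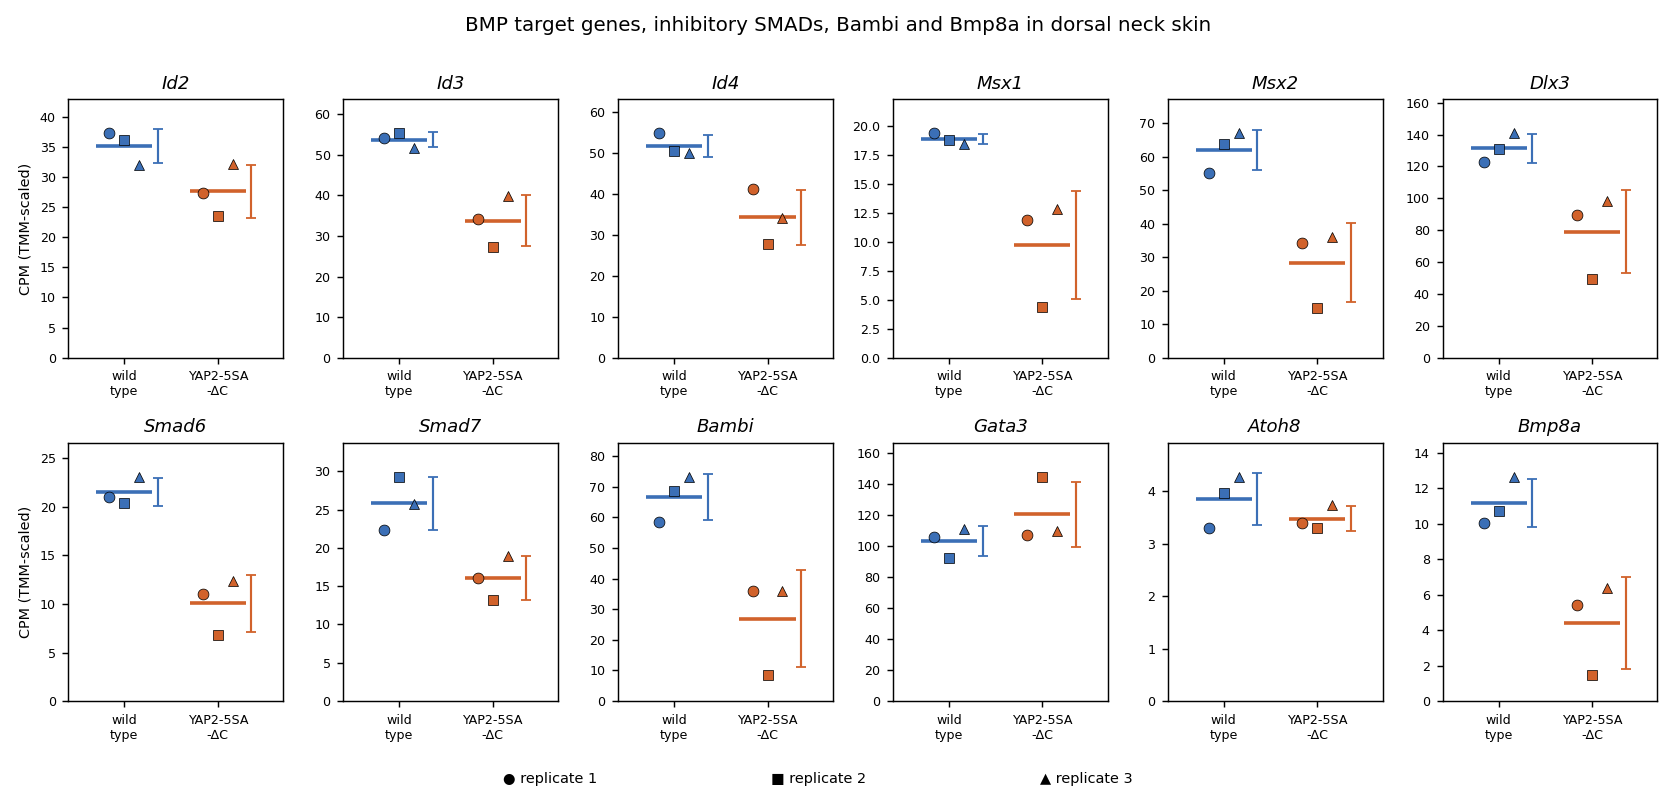
CPM (vertical axes, each starting at 0) of the 8 other listed BMP targets and of Smad6, Smad7, Bambi and Bmp8a in each library, with group means (thick lines) and 1 SD (error bars); the last 4 were added for display after their values were seen. Id3, Id4, Msx1, Msx2, Dlx3, Smad6, Smad7, Bambi and Bmp8a do not overlap between the groups, and YAP2-5SA-∆C replicate 2 (orange square) is the lowest library in each of them.

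Among the remaining ligands, Bmp8a was read at 10.1, 10.7 and 12.7 CPM in wild type and at 5.39, 1.47 and 6.37 CPM in transgenic skin. It fell by the likelihood-ratio test (adjusted p = 0.00319) and not by the quasi-likelihood test (adjusted p = 0.123), with a log2 fold change of −1.33 ± 0.45 (SE), or −0.90 without transgenic replicate 2. Gdf10, also known as Bmp3b, stood at 5.63 ± 0.753 and 4.25 ± 1.16 CPM (adjusted p = 0.285). Of the 9 listed coreceptors and further receptors, all were tested. Eng, or endoglin, a coreceptor best known from endothelium, was read at 15.1, 12.7 and 15.1 CPM in wild type and at 19.7, 21.8 and 19.5 CPM in transgenic skin, where every library was higher. Its log2 fold change was 0.51 ± 0.10 (SE), with an adjusted p of 0.0526 by quasi-likelihood and 0.0216 by likelihood ratio. Neo1, or neogenin, which binds the RGM coreceptors, was lower in every transgenic library, at 193 ± 8.96 CPM in wild type and 141 ± 26.0 CPM in transgenic skin (log2 fold change −0.45, or −0.30 without transgenic replicate 2, adjusted p = 0.0912).

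Of 14 further tested antagonists, 7 had an estimate below zero, beside 7908 of the 15102 tested genes. Fst, or follistatin, which binds activins and some BMPs, was read at 23.3, 20.4 and 13.5 CPM in wild type and at 31.6, 24.7 and 30.5 CPM in transgenic skin (log2 fold change 0.59 ± 0.20 SE, likelihood-ratio adjusted p = 0.0423, quasi-likelihood adjusted p = 0.125). Nbl1, the DAN family antagonist, stood at 30.1 ± 3.48 CPM in wild type and 40.4 ± 5.54 CPM in transgenic skin (log2 fold change 0.42, adjusted p = 0.0935). Fstl1, the most abundant of the listed antagonists per kilobase, stood at 439 ± 16.6 and 418 ± 35.4 CPM (log2 fold change −0.07, adjusted p = 0.598). The proteases that ripen the ligands or release them from chordin had no estimate below zero among 4 tested. Furin, which cleaves BMP precursors, stood at 78.2 ± 5.30 and 97.6 ± 10.5 CPM (log2 fold change 0.32, adjusted p = 0.0936), Pcsk6, a related convertase, at 68.9 ± 1.83 and 71.1 ± 10.9 CPM (adjusted p = 0.818), and Tll1, a tolloid protease that cuts chordin, at 5.55 ± 0.481 and 6.40 ± 0.239 CPM (adjusted p = 0.289).

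All 12 tested markers of hair matrix, shaft and inner root sheath were lower in every transgenic library than in every wild type library, and the likelihood-ratio test called 11 of them and the quasi-likelihood test 0. Each of the 12 had at least 138 counts in every library, so none was at 0. The quasi-likelihood test called 11 of the 12 once transgenic replicate 2 was left out. Their sum ran from 13873 to 18158 CPM in wild type and from 1431 to 9234 CPM in transgenic skin. The 6 melanocyte markers were also lower without overlap (416 to 489 CPM summed against 154 to 266 CPM), and the quasi-likelihood test called 2 of them. The 8 basal keratinocyte markers summed to 4135 to 4918 CPM in wild type and 6497 to 8198 CPM in transgenic skin, where 4 of the 8 were higher without overlap and the quasi-likelihood test called 1. All 8 macrophage markers were higher without overlap (496 to 604 CPM against 722 to 809 CPM summed). The quasi-likelihood test called 2 of them and the likelihood-ratio test 4. Of 5 sebaceous gland markers, 4 were higher without overlap (93.6 to 156 CPM against 172 to 219 CPM, summed over all 5). Here the quasi-likelihood test called 0 and the likelihood-ratio test 2. The 8 skeletal muscle markers overlapped (1330 to 6793 CPM against 1225 to 3273 CPM) with a median log2 fold change of −1.12. The quasi-likelihood test called 0 of them and the likelihood-ratio test 1, as lower. The sum of the dermal papilla markers overlapped between the groups, at 124 to 162 CPM and 132 to 148 CPM, but 43.7% of it came from Prlr. Of the 9 tested, 3 were lower and 1 was higher without overlap, and the likelihood-ratio test called 1, Corin, which is named after its values were seen (log2 fold change −0.92, or −0.63 without transgenic replicate 2, adjusted p = 0.00510). Sox2 was at 4 to 10 counts and was not tested. The 8 endothelial markers, given because Eng is known from endothelium, summed to 133 to 148 CPM and 153 to 182 CPM. None had an estimate below zero, 3 of the 8 were higher without overlap and no gene was called. The part of these markers in the differences of the BMP genes was not tested.

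YAP2-5SA-∆C replicate 2, the library with the lowest hair markers, was also the lowest of the 6 libraries in 5 of the 10 BMP genes, in 7 of the 8 other targets and in 20 of the 46 other pathway genes. It was the highest of the 6 in 2 of the 10 and in 15 of the 46. It was also the lowest in the 10 genes of the pathway that the likelihood-ratio test called lower, a direction that their choice favours. No share over all tested genes was counted for the lowest or highest place of replicate 2. Without it, the quasi-likelihood test called 5.57% of all tested genes in either direction and 2.74% as lower. Among them were 1 of the 10 genes (Bmp6) and 8 of the 46 other pathway genes, all of them lower: Id3, Id4, Bmp8a, Smad6, Msx2, Dlx3, Bambi and Msx1. The last, also named after its values were seen, had a log2 fold change of −0.96, or −0.60 without transgenic replicate 2.

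**Figure D4:**
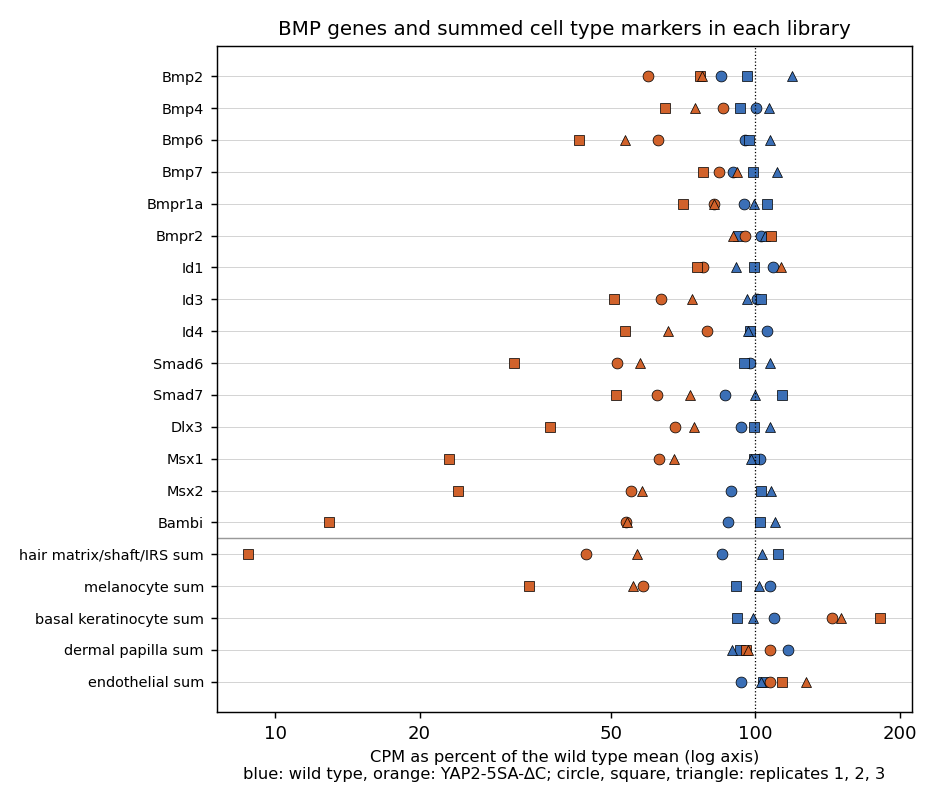
CPM of 15 BMP genes and of 5 summed marker lists in each library, as percent of the wild type mean on a log axis; blue symbols are wild type and orange symbols YAP2-5SA-∆C libraries. YAP2-5SA-∆C replicate 2 (orange square) stands lowest for hair markers, melanocyte markers and all BMP genes shown except Bmp2 and Bmpr2. It is highest for basal keratinocyte markers and not lowest for dermal papilla or endothelial markers.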

How the data were processed

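Skin RNA of 6 mice (3 per genotype) was sequenced as paired reads. The authors mapped the reads to GRCm38 with TopHat2 and Bowtie2 (2.0.12 and 2.1.0 in the submitters' processing notes, which differ from the methods in the TopHat2 version), counted them per Ensembl gene with HTSeq and deposited raw counts. Strand settings are not given in the sources used here. Symbols, positions and exon lengths came from GENCODE M21, in which 558 of the 26579 identifiers were absent. Genes that reached 1 CPM in 3 or more libraries (15102) were scaled by TMM and tested with the quasi-likelihood test of edgeR 4.0.16 in R 4.3.3, in its bias-adjusted form, on genotype alone. SE is the size of the log2 fold change over the root of F. Benjamini-Hochberg adjustment ran over all tested genes, with a threshold of 0.05. The alternatives were edgeR's likelihood-ratio test, voom (limma 3.58.1), the Wald test of DESeq2 1.42.0, other size factors and filters, a replicate block and omission of single libraries. The quasi-likelihood, likelihood-ratio, voom and DESeq2 tests were also run on simulated counts of 6 libraries. Named pathway genes were, in each role list, the 2 with the lowest unadjusted p and the 1 with the highest mean CPM per kb over all 6 libraries. The 10 genes and all lists were chosen with earlier results of these data known.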

Additional observations from a re-analysis of the deposited data

How the results depend on the processing

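All 10 estimates kept their sign with all 6 libraries under every alternative scaling, filter and test run. The count of the 10 genes called was 0 as reported, 1 (Bmp6) with RLE or upper-quartile factors, without the filter, with at least 10 counts in every sample and by the likelihood-ratio test, 2 by DESeq2 (Bmp6 and Bmpr1a), and 0 to 1 when a library was left out. For the 46 other pathway genes it was 0 as reported, 1 with RLE factors, upper-quartile factors, voom, or the quasi-likelihood test without bias adjustment (chosen after seeing the data), 3 without the filter, 11 by the likelihood-ratio test, 13 by DESeq2, and 0 to 8 when a library was left out. Over all genes, 288 were called as reported, 497 without the filter, 1568 by the likelihood-ratio test, 1590 by DESeq2 and 0 to 841 when a library was left out (wild type replicates 1 to 3 left out gave 142, 0 and 0 calls, transgenic replicates 1 to 3 gave 111, 841 and 0). The cause was not tested. Of the calls over all genes 75.7% were higher in transgenic skin as reported, 53.1% by the likelihood-ratio test and 60.3% by DESeq2. When a library was left out, the log2 fold change of Bmpr1b ran from −0.69 to 0.18, that of Bmpr2 from −0.094 to 0.020 and that of Pcsk6 from −0.067 to 0.13. With the replicate block, 0 genes were called (2949 at an unadjusted p under 0.05), and Bmp6 had an adjusted p of 0.170. Same-numbered libraries deviated from their group means with correlations of −0.35, −0.26 and −0.07. With 3 libraries per group, these values do not decide whether equal numbers meant a shared litter or batch. Nog and Bmpr1b had at most 48 counts per library. How far depth and how far the spread between mice set their intervals was not tested.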
